A study of Mus musculus with 16 samples.

Results

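The genes described are the collagen hydroxylases and lysyl oxidases: the collagen prolyl 4-hydroxylase alpha subunits P4ha1, P4ha2 and P4ha3, the lysyl hydroxylases Plod1, Plod2 and Plod3, and the lysyl oxidases Lox, Loxl1, Loxl2 and Loxl3. A value was taken only from a probe set that the platform annotation gives to 1 of these genes alone. This gave 15 probe sets for 9 of the 10 genes, out of 18194 genes measured. Both probe sets of Loxl2 are also given to a second gene, so Loxl2 has no value here. Of the 15 probe sets, 12 reached a log2 value of 4 on at least 3 arrays and were tested, and each of the 9 genes has at least 1 of them. The 3 that did not are further, dimmer probe sets of Plod1, Lox and Loxl1. The gene set was chosen with its E14.5 differences between mutants and controls already known, so its E14.5 values are given as a description, without p-values.

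The question behind the series was what deleting Erk2, which encodes a MAP kinase downstream of RAS, does to metabolism in palatal mesenchyme. Palates of C57BL/6J embryos were profiled on 16 one-colour Affymetrix arrays. The groups were 5 Erk2 fl/fl;Wnt1-Cre mutants and 5 Erk2 fl/fl controls at embryonic age E14.5, and 3 mutants and 3 controls of the same genotypes at E13.5. Controls carry the floxed allele too and lack only the Cre, although their sample titles say wild-type. Wnt1-Cre acts in neural crest cells, the source of the palatal mesenchyme, and so leaves Erk2 in epithelium and endothelium. By their labels, replicates 1 and 2 of each E14.5 genotype form batch 1 and replicates 3, 4 and 5 form batch 2, while no batch is labelled at E13.5. The series text speaks of cultured primary cells, whereas the extraction protocol names tissue. The number of embryos behind an array is not stated, so p-values cover the spread among these samples, which may be technical. The level of the deleted gene was not analysed here.

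Collagen chains are modified in the endoplasmic reticulum before they leave the cell. Prolyl 4-hydroxylase, built of an alpha subunit that carries the active site and the beta subunit P4hb (protein disulfide isomerase), makes the hydroxyproline that keeps the triple helix stable at body temperature. Lysyl hydroxylases make hydroxylysine, which carries sugars and takes part in crosslinks. Outside the cell, lysyl oxidases turn lysine and hydroxylysine side chains into aldehydes, from which the crosslinks of collagen and elastin form. Prolyl and lysyl hydroxylases use iron, oxygen, 2-oxoglutarate and ascorbate, and lysyl oxidases use copper.

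The values are deposited log2 expression values made with GCRMA, in which a difference of 1 is a doubling. Array medians were 1.63 to 1.66 at E14.5 and 3.39 to 3.44 at E13.5, so a level at one stage cannot be set directly against a level at the other. Within a group, arrays correlated at 0.993 to 0.997 (11116 tested genes). All 14 markers of palatal mesenchyme were at or above log2 4 on every array. Transcripts linked to sex placed 3 of 5 E14.5 mutants and 1 of 5 E14.5 controls as female, against 3 of 3 in each E13.5 genotype.

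At E14.5 all 9 measured genes had a lower mean in mutants than in controls. The differences lay between −0.36 and −0.04 on the log2 scale, with a median of −0.22, whereas the median over all 11116 genes was 0.01 and 44% of all genes were below 0. In the fit over all genes (limma), P4ha1, P4ha2 and Lox were among those with an adjusted p under 0.05. In that comparison 2.63% of all genes passed in either direction and 1.15% passed as lower. Because the gene set was chosen on this comparison, these counts describe it and support nothing further. Intact palate tissue or mixed cells give 1 RNA pool per array, so fewer cells of a type and less RNA per cell cannot be told apart.

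**Figure D1:**
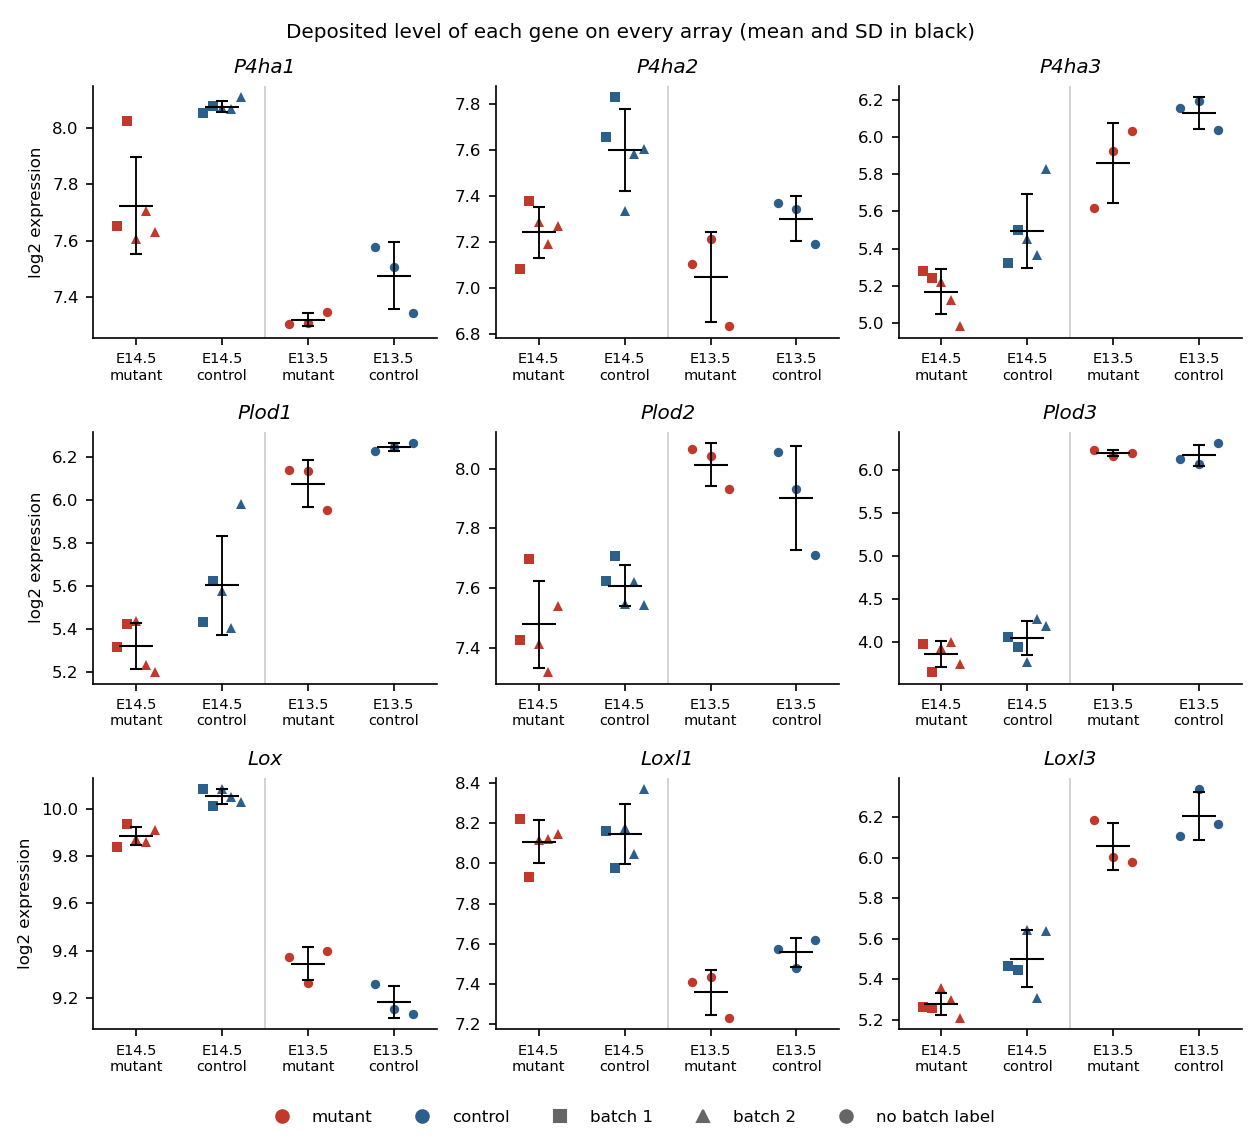
Deposited log2 level of the 9 measured genes on each of the 16 arrays, with mutants in red and controls in blue, 5 arrays per genotype at E14.5 and 3 at E13.5. Squares are batch 1, triangles batch 2 and circles E13.5 arrays, and black lines give the group mean and SD. P4ha1, P4ha3 and Lox show no overlap of the genotypes at E14.5.

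Among the prolyl 4-hydroxylases, P4ha1 encodes the alpha subunit of the form found in most cells, P4ha2 the subunit of the form best known from cartilage and bone, and P4ha3 another, less studied subunit. P4ha1 was at 7.65, 8.03, 7.61, 7.70 and 7.63 in E14.5 mutants 1 to 5, against 8.05, 8.08, 8.07, 8.07 and 8.11 in E14.5 controls. The controls lay within a narrow band, 4 mutants lay well under it and mutant 2 lay just under it. Mutants averaged 7.72 ± 0.17 and controls 8.07 ± 0.02 (SD, n = 5 each), a difference of −0.35 ± 0.07 (moderated SE), or 0.784 times the control level. A second P4ha1 probe set with lower signal was at 3.07, 4.28, 3.61, 3.30 and 3.74 in mutants, against 4.20, 4.38, 4.43, 4.27 and 2.60 in controls. There control 5 was below every mutant, the genotypes overlapped, and the difference was −0.38 ± 0.30 when each probe set was fitted on its own.

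P4ha2 was at 7.08, 7.38, 7.29, 7.19 and 7.27 in E14.5 mutants, against 7.66, 7.83, 7.34, 7.58 and 7.61 in E14.5 controls. Only mutant 2 and control 3 crossed, the mutant of batch 1 standing above the control of batch 2. The difference was −0.36 ± 0.09, or 0.780 times the control level. P4ha3 was at 5.28, 5.24, 5.22, 5.12 and 4.98 in mutants, against 5.32, 5.50, 5.45, 5.36 and 5.83 in controls. Every mutant was below every control, but the gap between mutant 1 and control 1 was small. Its difference was −0.32 ± 0.10, or 0.799 times the control level.

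At E13.5 the main probe sets of the same 3 genes had lower means in mutants, by less than the test could call. P4ha1 was at 7.30, 7.31 and 7.35 in mutants, against 7.58, 7.51 and 7.34 in controls, a difference of −0.16 ± 0.09 (limma, adjusted p = 0.589). The second P4ha1 probe set pointed the other way at E13.5, at 0.12 ± 0.39 when each probe set was fitted on its own (limma, adjusted p = 0.96). P4ha2 was at 7.10, 7.21 and 6.84 in mutants, against 7.37, 7.35 and 7.19 in controls, a difference of −0.25 ± 0.11 (limma, adjusted p = 0.503, unadjusted p = 0.0418). P4ha3 was at 5.62, 5.92 and 6.03 in mutants, against 6.16, 6.19 and 6.03 in controls, a difference of −0.27 ± 0.13 (limma, adjusted p = 0.536). In P4ha1 and P4ha2 the genotypes crossed through control 3, and in P4ha3 mutant 3 and control 3 nearly met. The 95% interval of the E13.5 difference ran from −0.34 to 0.03 for P4ha1 and from −0.49 to −0.01 for P4ha2. The genotype difference at E14.5 minus that at E13.5 was −0.19 ± 0.11 for P4ha1, with a 95% interval from −0.43 to 0.04. For P4ha2 it was −0.11 ± 0.14, with an interval from −0.41 to 0.20. Both intervals include 0. As they contain the E14.5 values on which the genes were chosen, they are a description.

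The promoters of P4ha1 and P4ha2 are printed because these were the prolyl hydroxylase genes below that threshold at E14.5, on which the set was chosen, and because genes of this family are known targets of the hypoxia-inducible factors. The sequences are RefSeq's for GRCm38.p6, from 250 bases before to 50 bases after the gene start, at chr10:59323046-59323345 on the plus strand for P4ha1 and chr11:54100674-54100973 on the plus strand for P4ha2. Capitals mark ACGTG, a form of the core of the hypoxia response element, or CACGT where it lies on the other strand. The form GCGTG was not searched for and stays in lower case.
P4ha1: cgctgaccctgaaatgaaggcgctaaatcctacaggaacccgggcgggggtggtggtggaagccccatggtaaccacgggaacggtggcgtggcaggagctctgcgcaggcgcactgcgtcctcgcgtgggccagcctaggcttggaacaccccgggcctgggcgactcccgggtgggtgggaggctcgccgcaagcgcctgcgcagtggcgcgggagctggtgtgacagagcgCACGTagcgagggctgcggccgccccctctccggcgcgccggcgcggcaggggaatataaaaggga
P4ha2: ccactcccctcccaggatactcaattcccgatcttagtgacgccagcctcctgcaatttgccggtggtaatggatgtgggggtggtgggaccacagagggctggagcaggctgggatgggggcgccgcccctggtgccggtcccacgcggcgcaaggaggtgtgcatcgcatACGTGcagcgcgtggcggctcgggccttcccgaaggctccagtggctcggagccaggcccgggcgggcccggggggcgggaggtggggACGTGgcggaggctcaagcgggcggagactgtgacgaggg
ACGTG was found 16 to 12 bases before the P4ha1 start, and both 78 to 74 bases before and 11 to 15 bases after the P4ha2 start. The promoter table held 5 of the 10 genes. Plod3 had ACGTG 54 to 50 bases before its start, while the P4ha3 and Plod1 windows did not hold these letters. On both strands, 19.6% of all 32851 promoter windows hold ACGTG. The AP-1 site TGANTCA was in none of the 5 windows and in 7.81% of all windows. The ETS core CCGGAA was in the Plod3 window only, at 112 to 107 bases before and 13 to 18 bases after the start, and in 14.9% of all windows. Both printed windows were 70.3% G and C, with 32 CpG pairs in P4ha1 and 26 in P4ha2. These matches describe the letters and say nothing of binding.

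Among the lysyl hydroxylases, Plod1 acts on lysines of the collagen helix, Plod2 on lysines of the telopeptides at its ends, and Plod3 also adds the sugars carried by hydroxylysine. Plod1 was at 5.31, 5.42, 5.43, 5.23 and 5.20 in E14.5 mutants, against 5.43, 5.62, 5.57, 5.40 and 5.98 in E14.5 controls. The highest mutant and the lowest controls overlapped, control 5 stood above the rest, and the difference was −0.28 ± 0.09. At E13.5 Plod1 was at 6.14, 6.14 and 5.95 in mutants, against 6.23, 6.25 and 6.26 in controls. All 3 mutants were below all 3 controls, and the difference of −0.17 ± 0.12 did not pass (limma, adjusted p = 0.693).

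Plod2 was at 7.43, 7.70, 7.41, 7.32 and 7.54 in E14.5 mutants, against 7.62, 7.71, 7.55, 7.62 and 7.54 in E14.5 controls. The groups overlapped and the difference was −0.13 ± 0.07. A second Plod2 probe set pointed the other way, at 0.10 ± 0.24, with a control range of 5.55 to 7.41 that enclosed the mutant range of 6.05 to 6.73. At E13.5 the first probe set was at 0.11 ± 0.09 (limma, adjusted p = 0.735) and the second at −0.01 ± 0.30. No direction for Plod2 was therefore shared by its probe sets at either stage.

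Plod3 was at 3.98, 3.65, 3.93, 4.00 and 3.75 in E14.5 mutants, against 4.06, 3.94, 3.76, 4.26 and 4.19 in E14.5 controls. All 5 mutants and controls 2 and 3 lay under the log2 4 used as the floor for testing, and the difference was −0.18 ± 0.09. At E13.5 it was at 6.23, 6.16 and 6.20 in mutants, against 6.13, 6.07 and 6.31 in controls. The E13.5 groups overlapped, with a difference of 0.03 ± 0.12 (limma, adjusted p = 0.964).

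Among the lysyl oxidases, Lox is the enzyme best known for crosslinking collagen and elastin, Loxl1 is required for elastic fibres in mice, and Loxl3 is required in mice for a closed palate and a normal spine. Lox was at 9.84, 9.93, 9.87, 9.86 and 9.91 in E14.5 mutants, against 10.08, 10.01, 10.08, 10.05 and 10.03 in E14.5 controls. The genotypes did not overlap and each had a narrow spread, at 9.88 ± 0.04 in mutants and 10.05 ± 0.03 in controls (SD, n = 5 each). The difference of −0.17 ± 0.04 is 0.890 times the control level, smaller than that of P4ha1 or P4ha2. A second Lox probe set was at 7.55, 8.49, 8.44, 7.95 and 8.28 in mutants, against 8.57, 8.74, 8.54, 8.55 and 7.92 in controls. Control 5 again fell among the mutants, and the difference was −0.32 ± 0.17.

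At E13.5 Lox lay on the other side. It was at 9.37, 9.27 and 9.40 in mutants, against 9.26, 9.15 and 9.13 in controls, with every mutant above every control. The second probe set was at 7.81, 7.74 and 7.65 in mutants, against 7.50, 7.28 and 7.26 in controls, and the genotypes were apart there too. The E13.5 difference was 0.16 ± 0.05 for the first (limma, unadjusted p = 0.00783, adjusted p = 0.371) and 0.39 ± 0.23 for the second, and neither passed, where 0.0551% of all probe sets did when each was fitted on its own. The genotype difference of Lox at E14.5 minus that at E13.5 was −0.33 ± 0.07, with a 95% interval from −0.47 to −0.19. In that comparison 0.117% of all genes passed and Lox was not among them. As it includes the E14.5 values on which the genes were chosen, it is given as a description.

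Loxl1 was at 8.22, 7.93, 8.12, 8.12 and 8.15 in E14.5 mutants, against 8.16, 7.98, 8.18, 8.05 and 8.37 in E14.5 controls. The groups overlapped except for mutant 2, below every control, and control 5, above every mutant. The difference of −0.04 ± 0.07 was the smallest of the 9 genes. At E13.5 it was at 7.41, 7.44 and 7.23 in mutants, against 7.57, 7.48 and 7.62 in controls, a difference of −0.20 ± 0.09 (limma, adjusted p = 0.516). Every E13.5 mutant was below every control, by a small gap between mutant 2 and control 2. Loxl3 was at 5.26, 5.26, 5.36, 5.30 and 5.21 in E14.5 mutants, against 5.47, 5.45, 5.64, 5.31 and 5.64 in E14.5 controls, a difference of −0.22 ± 0.07. Control 4 alone lay within the mutant range. At E13.5 Loxl3 was at 6.19, 6.00 and 5.98 in mutants, against 6.11, 6.34 and 6.17 in controls, and the difference of −0.15 ± 0.09 did not pass (limma, adjusted p = 0.615).

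Over the 9 genes, none passed limma's test at E13.5 after Benjamini-Hochberg adjustment, and P4ha2, Lox and Loxl1 had an unadjusted p under 0.05. In that comparison 0.099% of all genes passed after adjustment, and 9.54% had an unadjusted p under 0.05. The E13.5 differences of 6 genes were below 0 and those of 3 above, with a median of −0.16, while 68.5% of all genes were below 0 and their median was −0.04. The genotypes were fully apart, with mutants lower, for P4ha3, Plod1 and Loxl1 at E13.5, which 13.5% of all genes were, and with mutants higher for Lox, as 4.32% of all genes were. At E14.5 they were fully apart, with mutants lower, for P4ha1, P4ha3 and Lox, as 1.88% of all genes were.

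**Figure D2:**
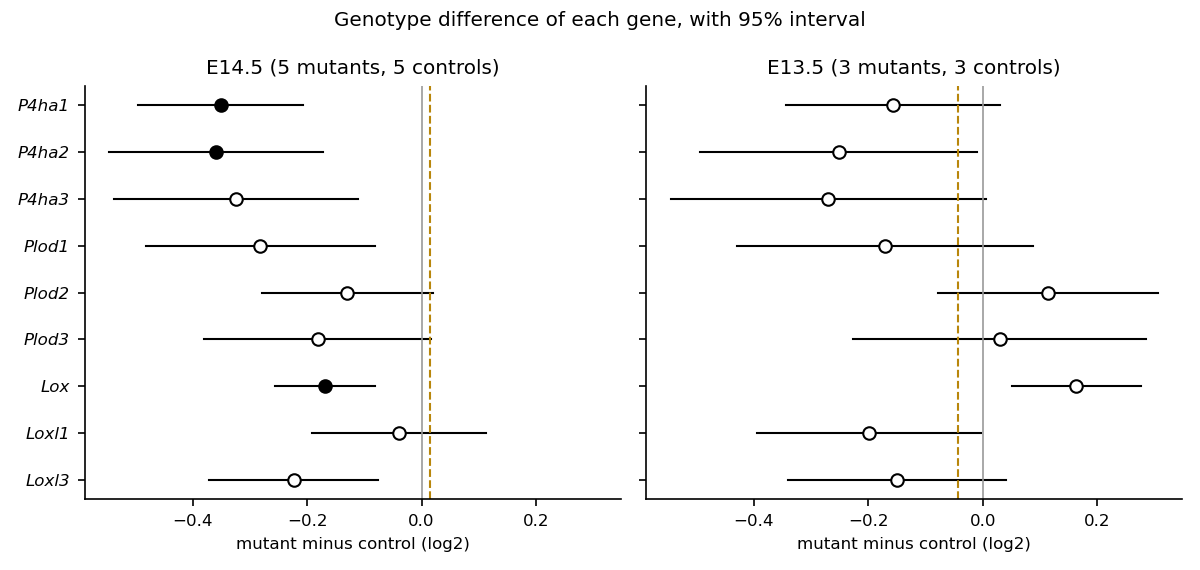
Mutant minus control difference (log2) of the 9 measured genes, at E14.5 (5 arrays per genotype) and E13.5 (3 per genotype), with 95% intervals. Filled points passed an adjusted p of 0.05 over all genes and the dashed line is the median of all genes. The E14.5 points lie between −0.36 and −0.04, while at E13.5 Lox, Plod2 and Plod3 lie above 0.

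The E14.5 differences were also read within each batch. P4ha1 was at −0.23 in batch 1 and −0.43 in batch 2, P4ha2 at −0.51 and −0.26, and P4ha3 at −0.15 and −0.44. The sign held in both batches, and P4ha3 differed most between them in size. Plod1 was at −0.16 and −0.36, Plod2 at −0.10 and −0.15, and Plod3 at −0.19 and −0.18. Lox was at −0.16 and −0.17, and Loxl3 at −0.20 and −0.24. Plod3 and Lox differed least between the batches. Loxl1 was at 0.0060 and −0.07, so 8 of 9 genes had a lower mean in mutants in both batches, as 24% of all genes did. In P4ha1, P4ha2, P4ha3 and Lox the mutants lay below the controls without overlap within each batch, as they did for 2.51% of all genes. Both counts repeat the E14.5 direction on which the genes were chosen and are a description.

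**Figure D3:**
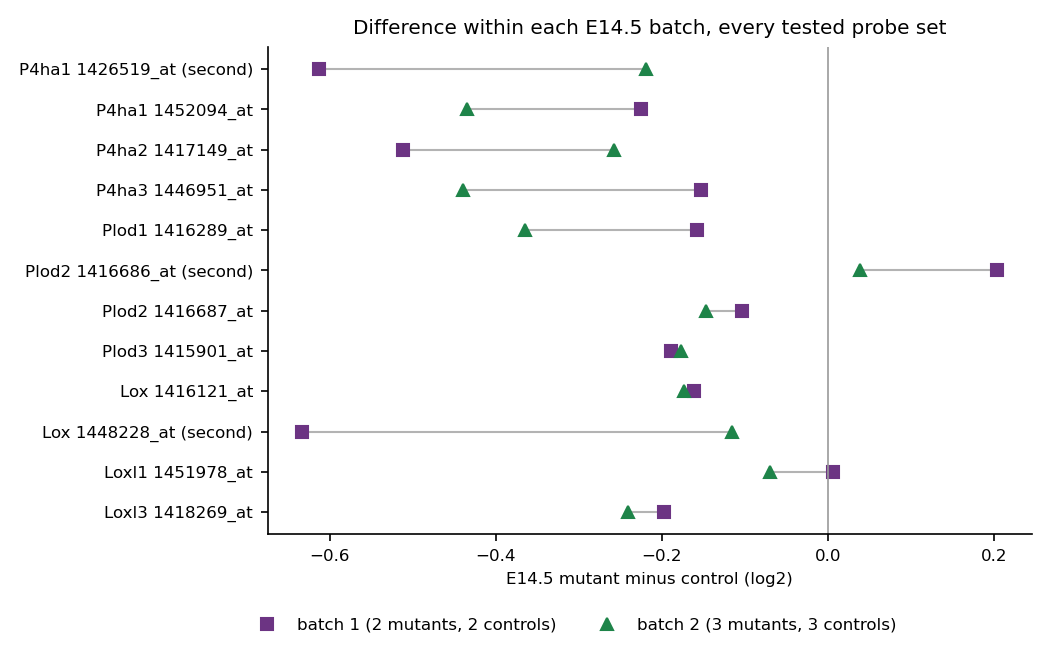
Mutant minus control difference (log2) at E14.5 within batch 1 (squares, 2 arrays per genotype) and batch 2 (triangles, 3 per genotype), for the 12 tested probe sets of the 9 genes. Lox lies at −0.16 and −0.17, whereas the second Plod2 probe set lies above 0 in both batches, at 0.20 and 0.04.

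The E14.5 calls changed with the processing. With each of the 18136 probe sets fitted on its own, P4ha1 alone of the 12 tested probe sets passed, where 1.29% of all probe sets did. Over 34 other settings the P4ha1 call was lost under 6, including the fit without E14.5 mutant 1, the P4ha2 call under 23 and the Lox call under 26. No sign of the 3 changed. Their differences ranged from −0.43 to −0.23 for P4ha1, from −0.51 to −0.26 for P4ha2 and from −0.21 to −0.15 for Lox.

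From E13.5 to E14.5 the deposited values of most genes moved, with 85.3% of genes called in mutants and 86.5% in controls and a median change of −0.56 in mutants and −0.63 in controls. No label says whether any E13.5 and E14.5 arrays were run together, so a stage change cannot be told apart from a difference between runs. Against that shift, the main probe sets of Lox, P4ha1 and Loxl1 went up. Lox was higher at E14.5 by 0.54 ± 0.05 in mutants and 0.87 ± 0.05 in controls (limma, adjusted p = 4.13e-08 and 1.24e-10). With each probe set fitted on its own, the second Lox probe set was at 0.41 ± 0.20 in mutants, which did not pass (limma, adjusted p = 0.069). In controls it rose by 1.12 ± 0.20 (limma, adjusted p = 0.000102). P4ha1 was higher by 0.41 ± 0.08 in mutants and 0.61 ± 0.08 in controls (limma, adjusted p = 0.000164 and 3.09e-06). The second P4ha1 probe set, fitted on its own, pointed the other way, at −0.58 ± 0.35 in mutants and −0.09 ± 0.35 in controls. It passed in neither (limma, adjusted p = 0.134 and 0.823). Loxl1 was higher by 0.74 ± 0.08 in mutants and 0.58 ± 0.08 in controls (limma, adjusted p = 6.37e-07 and 8.63e-06). P4ha2 changed by 0.20 ± 0.10 in mutants, which did not pass, and rose by 0.31 ± 0.10 in controls (limma, adjusted p = 0.0743 and 0.0102). Without E13.5 control 3 the control change of P4ha2 was 0.25 and no longer passed, and without E13.5 mutant 2 or E14.5 mutant 1 the mutant change was 0.28 and passed.

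Plod3 was lower at E14.5, at −2.35 ± 0.11 in mutants and −2.14 ± 0.11 in controls (limma, adjusted p = 1.75e-11 and 4.99e-11). The direction of these 5 genes, Lox, P4ha1, P4ha2 and Loxl1 up and Plod3 down, was kept with quantile normalization over all arrays, where P4ha1 was at 0.71 and 0.92 in mutants and controls, Lox at 0.63 and 0.98, Loxl1 at 1.02 and 0.88, and Plod3 at −1.43 and −1.14. With arrays centred on their medians Plod3 was at −0.56 and −0.39, while Lox was at 2.33 and 2.62 and Loxl1 at 2.53 and 2.33, so the order of the genes by size of change depended on the scaling. Averaging the probe sets of a gene turned Loxl1 to −0.78 and −0.68 and P4ha1 in mutants to −0.085, and left Lox in mutants at 0.032, no longer passing. P4ha3, Plod1, Plod2 and Loxl3 were lower at E14.5 by 0.28 to 0.78 as deposited, where all genes shifted by −0.56 and −0.63, and turned to 1.01 to 1.47 higher with arrays centred on their medians, so no direction is given for them.

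Ranks within each array, which use no common scale, moved in the same direction for P4ha1, Lox and Plod3. P4ha1 stood at the 85.4th percentile of genes in E14.5 mutants and the 88.4th in E14.5 controls, against the 78.3rd and 79.6th in E13.5 mutants and controls. Lox stood at 97.3 and 97.7 at E14.5, in mutants and controls, against 95.1 and 94.2 at E13.5. Plod3 stood at 51.4 and 52.7 at E14.5, against 63.8 and 62.5 at E13.5.

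How the 9 genes vary together was read over the 16 arrays after the stage and batch means were taken out. The arrays still share the genotype difference, so each correlation is given with the genotype means removed as well. Of the 36 pairs, 33 correlated above 0, with a median of 0.30, and with genotype means removed 17 were below 0 and the median was 0.02. The closest pairs were P4ha3 with Plod1 at 0.80 (0.57 with genotype means removed), Plod1 with Loxl3 at 0.79 (0.59) and P4ha1 with P4ha2 at 0.73 (0.47). With genotype means removed the order changed, and the closest pairs were P4ha2 with Plod2 at 0.70 and P4ha1 with Plod2 at 0.67. Lox went most closely with Plod2, at 0.67 (0.47), and against Loxl1, at −0.31 (−0.34). These are descriptions of 16 arrays that share 2 stages and 2 batches.

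Likeness was searched among tested genes outside the set, without RIKEN clones, predicted genes and genes known only by a clone or locus number. There the pattern most like that of P4ha1 was that of Sp7, at a correlation of 0.95 (0.82 with genotype means removed). Sp7 encodes osterix, a transcription factor of bone-forming cells. Bambi, a pseudoreceptor that dampens TGF-beta family signalling, followed at 0.95 (0.80), and Pcolce2, which speeds the removal of the procollagen C-propeptide, at 0.93 (0.75). Sp7 was at 6.22, 6.85, 6.27, 6.68 and 6.24 in E14.5 mutants, against 7.03, 7.04, 7.24, 7.11 and 7.38 in E14.5 controls. Pcolce2 was at 5.61, 6.50, 5.82, 5.59 and 5.31 in mutants, against 6.45, 6.77, 6.51, 6.75 and 6.90 in controls. In Sp7 and Pcolce2, as in P4ha1, mutant 2 was the highest mutant. These genes were picked for their likeness to P4ha1 on the same arrays, so that match is a description. How high the best of all searched genes would reach by chance was not tested. The nearest pattern to P4ha2 was St3gal2 at 0.89, to Plod2 Dnajc21 at 0.82, and to Lox Ccdc13 at 0.86, followed by the protein disulfide isomerase Pdia5 at 0.83. Ccdc13 averaged 1.34 ± 0.09 in E14.5 mutants and 1.59 ± 0.06 in E14.5 controls (SD, n = 5 each), below log2 4, and was tested through its E13.5 arrays. With genotype means removed the correlation of Pdia5 with Lox was 0.32.

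**Figure D4:**
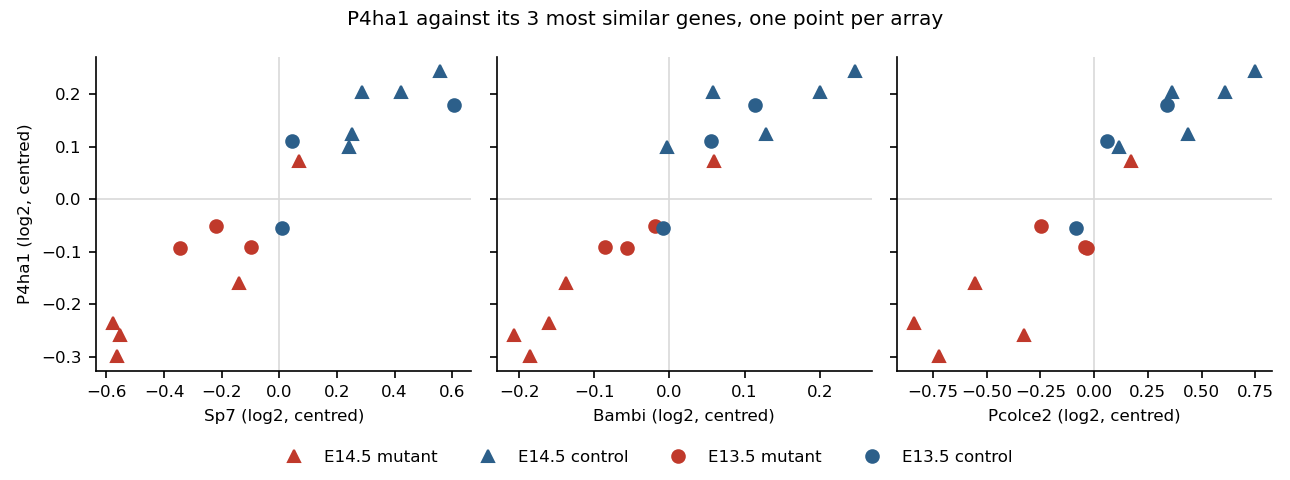
P4ha1 (vertical axis) against Sp7, Bambi and Pcolce2 (horizontal axes) on the 16 arrays, in log2 after stage and batch means were removed. Mutants are red, controls blue, triangles E14.5 and circles E13.5. The correlations are 0.95, 0.95 and 0.93.

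The partners of these enzymes came from lists, whose E14.5 counts stand beside the 2.63% of all genes that passed. For unadjusted p under 0.05, the share of all genes was taken at E13.5 only, where it was 9.54%. Such counts at E14.5 therefore have no share beside them and are a description. Of 15 folding and modification partners, 13 were below 0 at E14.5, with a median of −0.12, and 1 passed. That gene, P3h4, which in mice is part of a complex with the Plod1 protein, was at 7.83, 7.97, 7.89, 7.72 and 7.86 in E14.5 mutants, against 8.05, 8.15, 8.17, 8.07 and 8.13 in E14.5 controls, without overlap. It fell by 0.26 ± 0.05 (limma, adjusted p = 0.0154). P4hb was at −0.12 ± 0.04 and the peptidyl-prolyl isomerase Fkbp14 at −0.26 ± 0.07, and neither passed (limma, adjusted p = 0.0961 and 0.0659). The collagen chaperone Serpinh1 was at −0.17 ± 0.08 and did not pass (limma, adjusted p = 0.271). At E13.5 the median of these 15 genes was −0.01, none passed limma's test, and 0 had an unadjusted p under 0.05.

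Of 8 genes of procollagen processing and crosslinking, all were below 0 at E14.5, with a median of −0.18, and Pcolce2 alone passed, falling by 0.91 ± 0.17 (limma, adjusted p = 0.0145). Pcolce, its paralog, was at −0.24 ± 0.06 (limma, adjusted p = 0.0684). At E13.5 all 8 were below 0, where 68.5% of all genes were, with a median of −0.19 against −0.04 over all genes. None passed there and 2 had an unadjusted p under 0.05. The 7 tested fibrillar collagens, the substrates of these enzymes, were all below 0 at E14.5, with a median of −0.18. None of the 7 passed and 4 had an unadjusted p under 0.05. Col1a1 was at −0.34 ± 0.13 and Col3a1 at −0.02 ± 0.05 (limma, adjusted p = 0.201 and 0.86). At E13.5 the median of the fibrillar collagens was −0.11, and none passed or had an unadjusted p under 0.05.

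The 9 genes of the elastic fibre, the other substrate of the lysyl oxidases, had a median of −0.09 at E14.5 and −0.03 at E13.5. None passed at either stage and 1 had an unadjusted p under 0.05 at each. Elastin itself, Eln, was at −0.09 ± 0.05 at E14.5 and 0.01 ± 0.06 at E13.5. Fbln5, which organises elastin and binds lysyl oxidase-like proteins, was at 0.26 ± 0.09 at E13.5 (limma, adjusted p = 0.39).

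**Figure D5:**
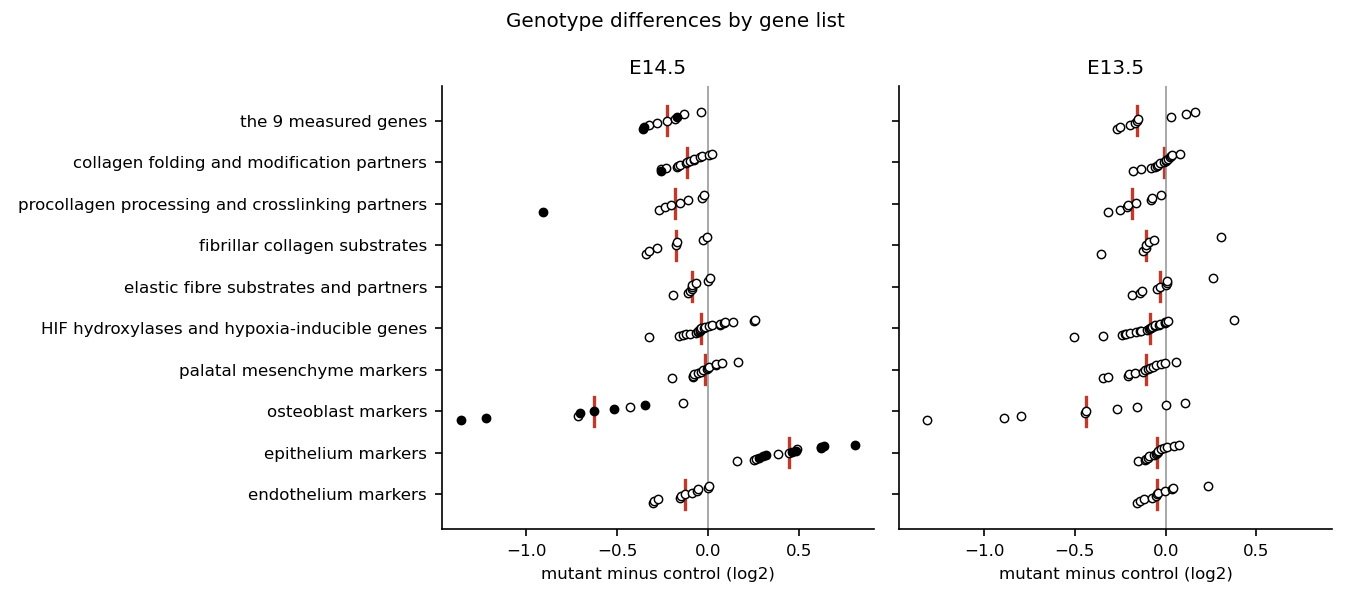
Mutant minus control difference (log2) of the 9 measured genes and the tested genes of the lists shown, at E14.5 and E13.5. The cartilage, skeletal muscle, neuron and glia, and erythroid and macrophage lists are not shown. Each circle is a gene, filled where it passed an adjusted p of 0.05 over all genes, and the red line is the list's median. At E14.5 the medians of the osteoblast and epithelium lists are −0.63 and 0.45, against −0.22 for the 9 measured genes.

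Markers of other cells moved beside the collagen enzymes at E14.5. Of 9 osteoblast markers, 9 were below 0 with a median of −0.63, and 6 fell, namely Creb3l1, Mef2c, Phex, Dmp1, Sp7 and Alpl, by 0.35 to 1.36. The log2 of the summed level of all 9 markers was 11.9 to 12.4 in E14.5 mutants and 12.3 to 12.6 in E14.5 controls. No marker of the list was under log2 4 there. Ibsp, which did not pass, was at 11.5 to 12.1 at E14.5 and made up most of that sum. At E13.5 the summed level of the 9 markers was 9.22 to 9.64 in mutants and 9.65 to 10.1 in controls. The median difference at E13.5 was −0.44, none passed and 5 had an unadjusted p under 0.05. Of 15 epithelium markers, 9 rose at E14.5, with a median of 0.45 and a summed level of 12.2 to 12.5 in mutants against 11.9 to 12.1 in controls, and the median at E13.5 was −0.05. Of 14 muscle markers all were above 0 at both stages and none passed. Of these, 5 at E14.5 and 2 at E13.5 had an unadjusted p under 0.05. The mean log2 of the 15 listed muscle genes was 6.87, 5.97, 5.79, 5.60 and 6.00 in E14.5 mutants 1 to 5. It was 4.92, 5.91, 4.91, 5.87 and 6.13 in E14.5 controls 1 to 5. The E14.5 genotypes thus overlapped, with controls 1 and 3 lowest and mutant 1 highest. At E13.5 that mean was 6.57 to 6.89 in mutants and 6.00 to 6.26 in controls. Of 11 endothelium markers 10 were below 0 at E14.5 and none passed, with 4 at an unadjusted p under 0.05. Of 8 cartilage markers, 4 were above and 4 below 0 at E14.5, with a median of −0.02, and Sox6 and Hapln1 fell, by 0.33 and 0.59. At E13.5, 5 of the 8 cartilage markers were above 0, with a median of 0.22, and none passed. There 4 higher and 1 lower had an unadjusted p under 0.05. Of 8 erythroid and macrophage markers, 2 were above and 6 below 0 at E14.5, with a median of −0.12, and Lyve1 fell, by 1.08. Of 9 neuron and glia markers, 5 were above and 4 below 0 at E14.5, with a median of 0.12, and none passed. The part of these cell types in the differences of the collagen enzymes was not tested. The 14 palatal mesenchyme markers had a median of −0.02 at E14.5, and none passed. At E13.5, 13 of them were below 0, with a median of −0.11, where 68.5% of all genes were below 0. None passed there, and 2 had an unadjusted p under 0.05. Their mean log2 at E13.5 was 8.77 to 8.82 in mutants and 8.88 to 8.97 in controls.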

How the data were processed

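RNA from mouse palates was measured on 16 Affymetrix arrays in 4 groups. The authors deposited log2 expression values made with GCRMA, per the submitters' processing notes, and its version is not given in the sources used here. Whether the stages were normalized together is not stated. The platform annotation gave 1 gene for 34958 of 45101 probe sets, several for 932 and none for 9211, and 64 were controls. For each of 18194 genes the probe set with the greatest average over the arrays was used, and 11116 genes with a log2 value of at least 4 on 3 arrays were tested. One limma 3.58.1 fit in R 4.3.3 (lmFit and eBayes) held all 16 arrays, the 4 groups and the E14.5 batch. A gene passed at a Benjamini-Hochberg adjusted p under 0.05, computed over 11116 genes. The number of arrays limits the precision.

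The members, lists and tests were chosen with earlier results of these data known. Genes outside the set were named by a rule. For likeness these were the 3 genes with the highest Pearson correlation to P4ha1, P4ha2, Plod2 and Lox after stage and batch means were removed. RIKEN clones, predicted genes and genes known only by a clone or locus number were left out of that search. For each list, genes that passed and up to 3 with the smallest p at either stage were named. Serpinh1 lies outside this rule and was named for its role after its values were seen. Same-numbered replicates of the 2 genotypes did not consistently deviate together, so no pairing was used. Alternatives covered the filter, the probe sets, the normalization, the variance model, the batches, sex and leaving out each array. The scripts were tested on simulated data. Promoters are RefSeq's for GRCm38.p6. Plots used matplotlib 3.10.9 under Python 3.11.15.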

Additional observations from a re-analysis of the deposited data

Results flagged for a closer look

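In a check of 30 groups of 5 arrays for 1 array far from its group, of which chance alone would mark about 1 in 20, 3 groups held such an array, which was E14.5 mutant 2 in 1 and E14.5 control 5 in 2 of them. E14.5 mutant 2 was at 8.03 for the main P4ha1 probe set, above the other mutants at 7.61 to 7.70 and just under the controls. E14.5 control 5 was at 2.60 for the second P4ha1 probe set, under the other controls at 4.20 to 4.43. The same array was at 7.92 for the second Lox probe set, under the other controls at 8.54 to 8.74. E14.5 control 5 also had the widest gap between the ends of beta-actin, a log2 difference of −1.61 between the 5′ and 3′ probe sets, where the E14.5 mutants averaged −1.24 ± 0.09 and the E14.5 controls −1.27 ± 0.21 (SD, n = 5 each). Its part in these values was not tested.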

How the results depend on the processing

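Of the 9 genes, 3 were called at E14.5. The count was 1 with no filter on low values, 1 with the mean over probe sets, 1 with every probe set its own feature, 1 with quantile normalization over all arrays, 1 with array weights and 1 with sex as a term. It was 0 with E14.5 arrays alone, 0 in batch 1 alone, 0 in batch 2 alone and 0 with the replicate block, and 2 without E14.5 controls 1 and 3. Leaving out each array gave 0 to 3. The count was 0 without E14.5 mutant 1, and 1 without E13.5 mutant 1, any E13.5 control, E14.5 mutants 3, 4 or 5, or E14.5 controls 1, 2 or 5. Genes called over the whole array numbered 292, against 184 with no filter, 130 with quantile normalization over all arrays, 155 with array weights, 143 with sex as a term, 64 with E14.5 arrays alone, 5 in batch 1, 29 in batch 2, 104 with the replicate block and 105 to 262 with 1 array left out, the fewest without E14.5 mutant 1. Same replicate numbers did not consistently pair the genotypes (correlations of −0.27 to 0.06 at E14.5 and −0.17 to 0.17 at E13.5). Only E14.5 replicate 5 and E13.5 replicate 2 correlated best with their own number, at 0.06 and 0.17. In batch 1, with 2 arrays per genotype, replicates 1 and 2 necessarily share a value, −0.13. At E13.5 the count stayed at 0 throughout, the block included. For the difference between stages it was 0, and 1 (Lox) with an intensity trend and 1 with array weights. For the stage change it was 9 in controls, 5 with quantile normalization over all arrays, and 8 to 9 when arrays were left out, and 8 in mutants, 8 to 9 when arrays were left out.

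Some signs turned. Averaging the probe sets of a gene put Loxl1 at 0.031 at E13.5, −0.10 for the difference between stages and −0.78 and −0.68 for the stage change in mutants and controls, and P4ha1 at −0.085 for the stage change in mutants. With arrays centred on their medians Plod3 was at −0.0078 at E13.5, and the stage change in mutants and controls was 1.10 and 1.11 for P4ha3, 1.03 and 1.10 for Plod1, 1.26 and 1.47 for Plod2, and 1.01 and 1.04 for Loxl3. With quantile normalization over all arrays it was 0.14 in mutants and 0.17 in controls for P4ha3, and in controls 0.11 for Plod1, 0.019 for Plod2 and 0.073 for Loxl3. Loxl1 at E14.5 was at 0.0060 in batch 1 alone. Leaving out 1 array moved Loxl1 at E14.5 over −0.090 to 0.011, above 0 without E14.5 control 5, and Plod3 at E13.5 over −0.021 to 0.100, below 0 without E13.5 control 2. The P4ha3 difference between stages ran from −0.17 to 0.038, at 0.033 without E13.5 mutant 3 and 0.038 without E14.5 control 5. The cause was not tested. Low signal limits Plod3 at E14.5 and the second P4ha1 probe set, both near the floor of log2 4.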

Other observations

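The HIF hydroxylases are oxygen-dependent dioxygenases, like the collagen prolyl and lysyl hydroxylases, and control the genes induced by low oxygen. Of 23 tested HIF hydroxylases and hypoxia-inducible genes, 14 were below 0 at E14.5 with a median of −0.04, and none passed. There 1 higher and 2 lower had an unadjusted p under 0.05, with no share of all genes taken. Ndrg1, a gene induced by low oxygen, was at 0.26 ± 0.08 and the HIF hydroxylase Egln3 at 0.26 ± 0.13 at E14.5 (limma, adjusted p = 0.11 and 0.319). Both named genes were above 0, against the list's median, and the 2 lower genes are not named. At E13.5, 20 of the 23 were below 0 with a median of −0.09, where 68.5% of all genes were below 0. None passed there, and 1 higher and 5 lower had an unadjusted p under 0.05. The glycolytic genes Aldoc and Pfkfb3 were at −0.51 ± 0.13 and −0.34 ± 0.10 at E13.5, and at 0.14 ± 0.10 and −0.10 ± 0.08 at E14.5 (limma, adjusted p = 0.237, 0.292, 0.532 and 0.553). Egln3 lies outside the naming rule and was chosen after its values were seen.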
